A study of Saccharomyces cerevisiae with 9 samples.

Results

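The genes described are the 9 cytosolic chaperones of the Hsp70, Hsp110, Hsp90 and Hsp104 families in the budding yeast Saccharomyces cerevisiae. They are SSA1 (YAL005C), SSA2 (YLL024C), SSA3 (YBL075C) and SSA4 (YER103W) of the Hsp70 family, SSE1 (YPL106C) and SSE2 (YBR169C) of the Hsp110 family, the Hsp90 genes HSP82 (YPL240C) and HSC82 (YMR186W), and HSP104 (YLL026W). They were taken by systematic name from a table of 5928 genes, and all 9 passed the filter on low counts, as did 5646 genes in all. RNA was sequenced from 3 groups of cultures with 3 biological replicates each, named Pcf11-DNL, Pcf11-13 and wild type. All strains were w303, mating type MAT alpha, with the alleles ade2-1, his3-11,15, trp1-delta and ura3-1 and a leu2 allele. In all of them, the wild type included, TRP1 replaced the chromosomal PCF11 gene, and PCF11 came from a LEU2 plasmid that the genotypes call pRS325 and the descriptions call centromeric with a low copy number. The plasmid carried V5-pcf11-deltaN-linkMYC in Pcf11-DNL, pcf11-13 with no tag named in Pcf11-13, and V5-PCF11-MYC in wild type. PCF11 encodes a subunit of the complex that cuts pre-mRNA at its poly(A) site and helps to end transcription. Cultures grew in YPAD at 30 °C and were collected at an OD600 between 1.0 and 1.2. Every library carries the treatment label glucose, although the growth text also mentions caffeine.

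Chaperones bind unfolded stretches of other proteins, and many of them, Hsp70 included, use ATP for binding and release. Hsp70 proteins (SSA1, SSA2, SSA3 and SSA4) act first on new and stress-damaged proteins, with Hsp40 partners that speed up ATP hydrolysis and Hsp110 proteins (SSE1 and SSE2) that exchange the nucleotide. Hsp90 (HSP82 and HSC82) finishes the folding of kinases and other client proteins, and Hsp104 pulls single chains out of aggregates together with Hsp70. In yeast, SSA2, SSE1 and HSC82 are known as the forms abundant in unstressed cells, and SSA3, SSA4, SSE2 and HSP82 as forms induced by heat. Heat shock factor Hsf1 and the stress factors Msn2 and Msn4 are the best-known activators of these genes.

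Totals of expected counts lay between 11372819 and 15906466 per library. PCF11 itself averaged 67.4 ± 2.56 CPM in Pcf11-DNL, 648 ± 32.3 CPM in Pcf11-13 and 84.7 ± 3.05 CPM in wild type (SD, n = 3 each), where CPM sets each count against the scaled total of its library. Replicate 1 of wild type differed from the rest of that group, with a chi-square per degree of freedom of 10.7 and 10.1 against the other wild type libraries, where other replicate pairs gave 2.50 to 4.70. Member calls that change without that library are given with both values. Leaving it out kept 5 of the members higher and 3 lower in Pcf11-13 and added SSA3 to those higher.

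In Pcf11-13, 5 of the 9 chaperone genes were higher than in wild type and 3 were lower. The 5 higher ones were SSA1, SSA4, SSE2, HSP82 and HSP104, and the 3 lower ones were SSA2, SSE1 and HSC82. SSA3 did not pass the threshold of an adjusted p under 0.05. In RNA from whole cultures, fewer cells that express a gene and less of its RNA per cell cannot be told apart. Among all genes tested, 35.2% were called higher and 30.9% lower in that comparison, 66.1% in all, so that calls were common on both sides. The same 5 members lay above wild type, and the same 3 below it, in every library, as did 37% and 32.7% of all genes. The median log2 fold change of the 9 members was 0.28, beside 0.03 over all genes tested. The largest changes were the rise of SSE2 and that of HSP82, by factors of 1.80 and 1.60. No member changed by as much as the PCF11 RNA itself, which was 7.64 times its wild type level. Scaled by library totals, 6 members were called higher, with SSA3 added, and 1 lower, SSA2, beside 59.7% and 15.2% of all genes. SSE1 and HSC82 were not called under that scaling.

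In Pcf11-DNL, SSE2 and HSP104 were higher than in wild type, none of the 9 was called lower, and the other 7 did not pass the threshold. Over all genes tested, 8.73% were called higher and 4.3% lower, 13% in all. Scaled by library totals, the same 2 members were called, beside 12.9% of all genes higher and 2.2% lower. The libraries of SSE2 and HSP104 lay wholly above wild type and those of SSE1 wholly below it, which held for 17% and 15.8% of all genes. The members' median log2 fold change was -0.10, beside 0.00 over all genes. Between the mutants, Pcf11-DNL had 3 members higher than Pcf11-13 (SSA2, SSE1 and HSC82) and 4 lower (SSA1, SSA4, SSE2 and HSP82), where 29.5% and 30.9% of all genes were called higher and lower, 60.3% in all. Without overlap, 3 members lay above Pcf11-13 and 5, with SSA3 added, lay below it, as did 32.9% and 34.1% of all genes. The members' median there was -0.14, beside -0.02 over all genes. Scaled by library totals, 0 members were called higher in Pcf11-DNL than in Pcf11-13 and 6 lower, beside 15.4% and 52.8% of all genes. The 3 comparisons share their libraries pairwise, so their values stand side by side and are not independent of each other.

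**Figure D1:**
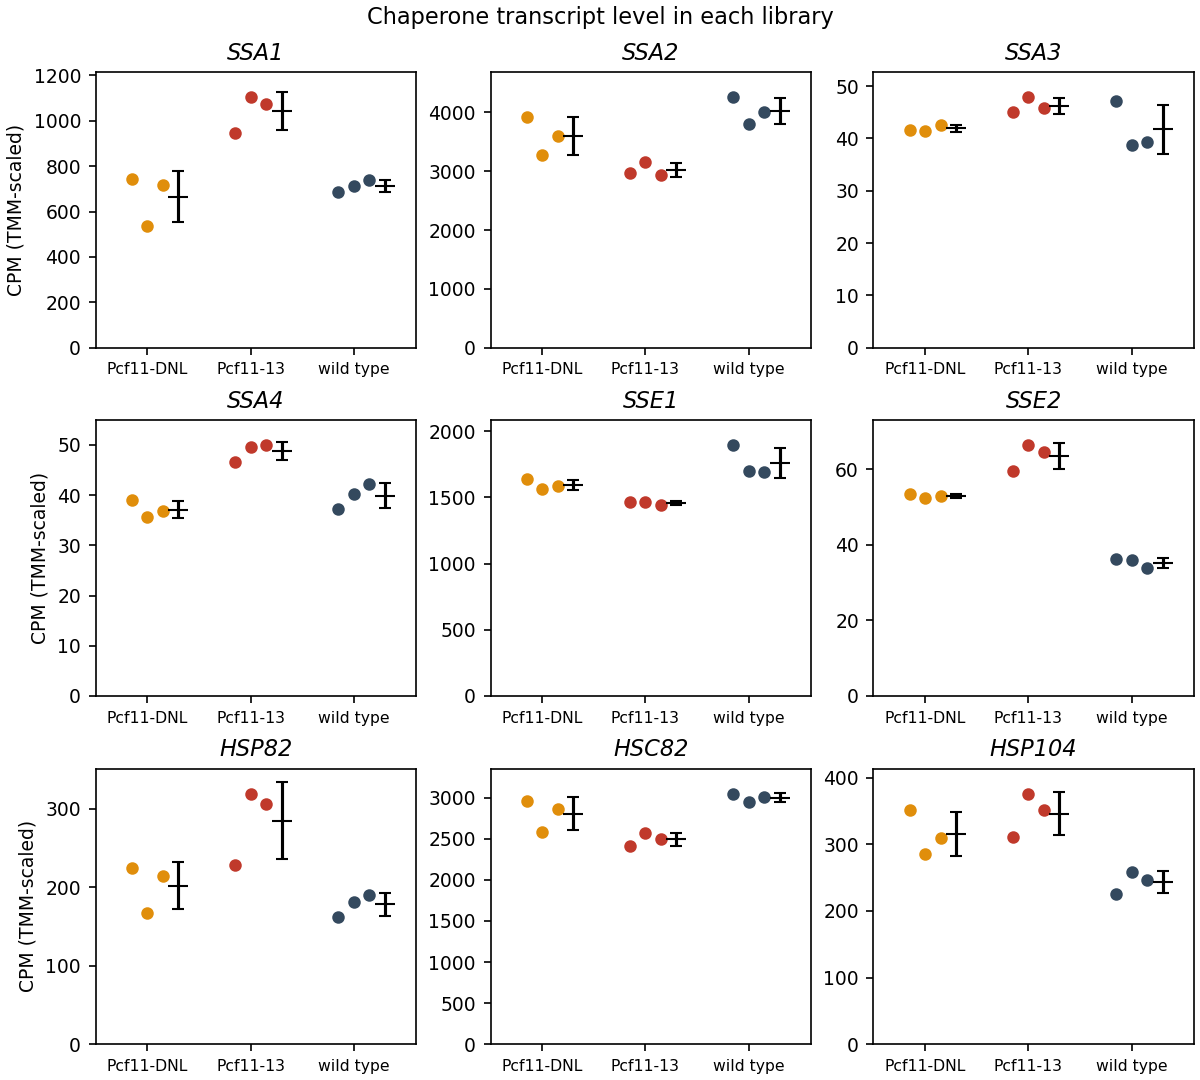
Level of each chaperone gene in CPM in the 9 libraries, one panel per gene with its own linear axis from 0. Points are libraries and bars the group mean ± SD, in the order Pcf11-DNL, Pcf11-13 and wild type. SSE2 shows 3 separate levels, while the SSA3 points of wild type lie on both sides of those of Pcf11-DNL.

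SSA2 encodes an Hsp70 that is abundant without stress, and it had the highest level per length of the 9 in every group. Its level was 3925, 3276 and 3599 CPM in Pcf11-DNL, 2964, 3160 and 2935 CPM in Pcf11-13, and 4256, 3802 and 4010 CPM in wild type. Every Pcf11-13 library lay below every library of the other groups, and the Pcf11-DNL libraries overlapped with wild type. SSA2 fell in Pcf11-13 by 0.41 ± 0.06 on the log2 scale (log2 fold change ± SE, edgeR, adjusted p = 1.14e-05). In Pcf11-DNL its log2 fold change against wild type was -0.16 ± 0.06 (edgeR, adjusted p = 0.0807). That value passed the threshold without wild type replicate 2 (edgeR, adjusted p = 0.0498) or without Pcf11-DNL replicate 1 (edgeR, adjusted p = 0.0239). Pcf11-DNL was higher than Pcf11-13, with a log2 fold change of 0.25 ± 0.06 (edgeR, adjusted p = 0.00134), a call that ended under scaling by library totals (0.09, edgeR, adjusted p = 0.155). Under that scaling SSA2 was lower in Pcf11-13 by a smaller value (-0.20, edgeR, adjusted p = 0.00432).

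SSA1, whose product is nearly the same Hsp70 protein, moved the other way in Pcf11-13. It stood at 745, 538 and 715 CPM in Pcf11-DNL, at 946, 1103 and 1074 CPM in Pcf11-13, and at 685, 714 and 739 CPM in wild type. All Pcf11-13 libraries were above all others, and the Pcf11-DNL libraries lay on both sides of wild type. SSA1 rose in Pcf11-13 with a log2 fold change of 0.55 ± 0.09 (edgeR, adjusted p = 5.91e-05). In Pcf11-DNL the log2 fold change against wild type was -0.10 ± 0.09 (edgeR, adjusted p = 0.501), and without Pcf11-DNL replicate 2, the lowest library, it was 0.03. Set against Pcf11-13, Pcf11-DNL was lower, with a log2 fold change of -0.64 ± 0.09 (edgeR, adjusted p = 1.47e-05).

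SSA3 and SSA4, the Hsp70 genes that heat is known to induce, were among the lowest of the 9 here. SSA3 had 41.7, 41.4 and 42.7 CPM in Pcf11-DNL, 45.1, 47.9 and 45.8 CPM in Pcf11-13, and 47.1, 38.8 and 39.4 CPM in wild type. The wild type spread came from replicate 1, whose value lay among those of Pcf11-13. With all libraries the log2 fold change of SSA3 in Pcf11-13 was 0.15 ± 0.07 (edgeR, adjusted p = 0.062), and without wild type replicate 1 it was 0.24 (edgeR, adjusted p = 0.00206). With all libraries it was also called higher under library totals (0.37, edgeR, adjusted p = 0.000143), by limma-voom (adjusted p = 0.039) and with a filter at 5 CPM on average (edgeR, adjusted p = 0.0461). In Pcf11-DNL it was 0.01 ± 0.07 against wild type (edgeR, adjusted p = 0.932). Pcf11-DNL libraries lay below those of Pcf11-13 with a log2 fold change of -0.14 ± 0.07 (edgeR, adjusted p = 0.0892), which passed without wild type replicate 1 (edgeR, adjusted p = 0.0306) and under library totals (-0.30, edgeR, adjusted p = 0.000857).

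SSA4 had 39.0, 35.6 and 36.7 CPM in Pcf11-DNL, 46.7, 49.6 and 49.9 CPM in Pcf11-13, and 37.3, 40.2 and 42.1 CPM in wild type. The Pcf11-13 libraries were above the other 6, which overlapped. SSA4 rose in Pcf11-13 with a log2 fold change of 0.28 ± 0.06 (edgeR, adjusted p = 0.000805), and 0.50 when libraries were scaled by their totals. Its log2 fold change in Pcf11-DNL was -0.11 ± 0.06 against wild type (edgeR, adjusted p = 0.283) and -0.39 ± 0.06 against Pcf11-13 (edgeR, adjusted p = 5.89e-05).

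SSE2, the heat-induced Hsp110 gene, was the member with the largest change in both mutants. It had 53.5, 52.3 and 52.9 CPM in Pcf11-DNL, 59.6, 66.3 and 64.6 CPM in Pcf11-13, and 36.3, 35.9 and 33.8 CPM in wild type. No 2 of the 3 groups overlapped, and wild type was the lowest. SSE2 rose in Pcf11-13 with a log2 fold change of 0.85 ± 0.06 (edgeR, adjusted p = 3.68e-09). In Pcf11-DNL the rise was 0.59 ± 0.06 against wild type (edgeR, adjusted p = 7.00e-06), a factor of 1.50. The Pcf11-DNL level was below that of Pcf11-13, with a log2 fold change of -0.26 ± 0.05 (edgeR, adjusted p = 0.00066), and -0.43 under library totals (edgeR, adjusted p = 1.20e-05).

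SSE1 encodes the major Hsp110, which exchanges the nucleotide of the SSA proteins. Its level was 1639, 1564 and 1584 CPM in Pcf11-DNL, 1469, 1463 and 1443 CPM in Pcf11-13, and 1893, 1697 and 1689 CPM in wild type. The groups did not overlap, and they stood in the reverse of the SSE2 order, with Pcf11-13 lowest. The largest value was that of wild type replicate 1. SSE1 fell in Pcf11-13 by 0.27 ± 0.05 on the log2 scale (edgeR, adjusted p = 7.16e-05), but the value was -0.06 under scaling by library totals (edgeR, adjusted p = 0.174). In Pcf11-DNL the log2 fold change against wild type was -0.14 ± 0.05 (edgeR, adjusted p = 0.0528), and it passed without wild type replicate 2 (edgeR, adjusted p = 0.044) or replicate 3 (edgeR, adjusted p = 0.0382). Against Pcf11-13 it was 0.13 ± 0.05 (edgeR, adjusted p = 0.0217). That call was lost without Pcf11-13 replicate 2 or 3 or Pcf11-DNL replicate 1 (edgeR, adjusted p = 0.0529, 0.0705 and 0.0925), and under library totals the value was -0.03.

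HSP82, the inducible Hsp90 gene, varied most of the 9 between Pcf11-13 replicates, with a coefficient of variation of 17.2%. It had 225, 168 and 214 CPM in Pcf11-DNL, 229, 319 and 306 CPM in Pcf11-13, and 162, 182 and 191 CPM in wild type. Replicate 1 of Pcf11-13 was close to the highest Pcf11-DNL library and above every wild type library, which overlapped with Pcf11-DNL. HSP82 rose in Pcf11-13 with a log2 fold change of 0.68 ± 0.11 (edgeR, adjusted p = 6.63e-05). In Pcf11-DNL the log2 fold change against wild type was 0.18 ± 0.11 (edgeR, adjusted p = 0.306). Against Pcf11-13 it was -0.49 ± 0.11 (edgeR, adjusted p = 0.0012).

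HSC82, the Hsp90 gene known to be active in unstressed cells, had 2966, 2589 and 2870 CPM in Pcf11-DNL, 2407, 2575 and 2498 CPM in Pcf11-13, and 3051, 2944 and 3008 CPM in wild type. Pcf11-13 lay below wild type in every library, and Pcf11-DNL reached from just above Pcf11-13 into the wild type range. HSC82 fell in Pcf11-13 by 0.27 ± 0.05 on the log2 scale (edgeR, adjusted p = 0.000122), and the value was -0.05 under scaling by library totals (edgeR, adjusted p = 0.314). The log2 fold change in Pcf11-DNL was -0.10 ± 0.05 against wild type (edgeR, adjusted p = 0.196). Against Pcf11-13 it was 0.17 ± 0.05 (edgeR, adjusted p = 0.00541), and 0.01 under library totals (edgeR, adjusted p = 0.88).

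HSP104 encodes the disaggregase of the cytosol and nucleus. It had 351, 286 and 310 CPM in Pcf11-DNL, 311, 376 and 351 CPM in Pcf11-13, and 225, 258 and 246 CPM in wild type. The mutants overlapped with each other, and both lay above wild type in every library. HSP104 rose in Pcf11-13 with a log2 fold change of 0.51 ± 0.08 (edgeR, adjusted p = 2.40e-05), and the rise in Pcf11-DNL was 0.38 ± 0.08 (edgeR, adjusted p = 0.00364). Pcf11-DNL against Pcf11-13 gave -0.13 ± 0.08 (edgeR, adjusted p = 0.147). That difference passed without Pcf11-13 replicate 1 (-0.20, edgeR, adjusted p = 0.0327) or without Pcf11-DNL replicate 1 (-0.22, edgeR, adjusted p = 0.028), and under library totals (-0.30, edgeR, adjusted p = 0.00507).

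**Figure D2:**
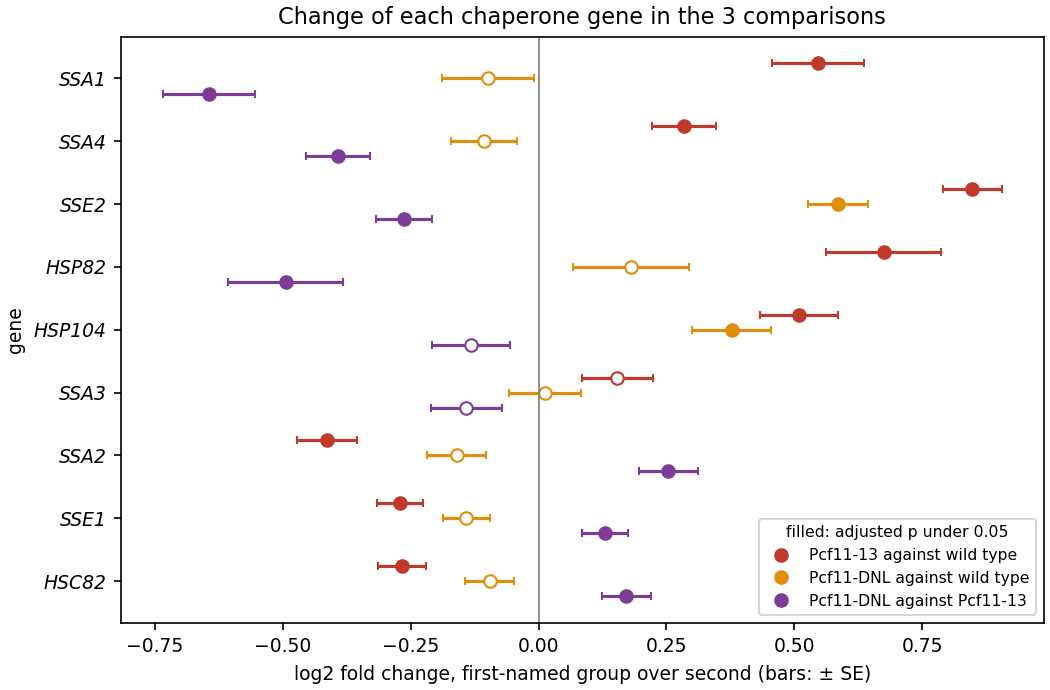
Log2 fold change of each chaperone gene in the 3 comparisons, with standard error bars, and filled markers for an adjusted p under 0.05. Against wild type, Pcf11-13 spreads the members between -0.41 (SSA2) and 0.85 (SSE2), and Pcf11-DNL between -0.16 (SSA2) and 0.59 (SSE2).

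Per kilobase of coding length, the order of the 9 genes in wild type ran from SSA2 (2095 CPM per kb) through HSC82 (1417), SSE1 (845) and SSA1 (370) to HSP104 (89.1), HSP82 (83.6), SSA3 (21.4), SSA4 (20.7) and SSE2 (17.0). HSP104 and HSP82 lay within their spread of each other in wild type, as did SSA3 and SSA4. In Pcf11-13 SSE2 averaged 30.5 ± 1.69 CPM per kb, above SSA4 (25.2 ± 0.91) and SSA3 (23.7 ± 0.75). In Pcf11-DNL it averaged 25.4 ± 0.29 CPM per kb, above SSA3 (21.5 ± 0.33) and SSA4 (19.2 ± 0.89). SSE2 thus ranked seventh of the 9 in both mutants and last in wild type.

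The members called lower in Pcf11-13 were 3 of the 4 with the highest wild type level per length. Those called higher were SSA1 from the same 4 and 4 of the other 5. The 9 genes together averaged 9320 ± 723 CPM in Pcf11-DNL, 8801 ± 342 CPM in Pcf11-13 and 10034 ± 341.1 CPM in wild type (SD, n = 3 each). Their share of all expected counts was 0.908% in Pcf11-DNL, 0.960% in Pcf11-13 and 0.943% in wild type, so the sum in Pcf11-13 was lower than in wild type on the TMM scale and higher as a share of the library. Within that sum, SSA2 held 38.6%, 34.3% and 40.1% in Pcf11-DNL, Pcf11-13 and wild type, and SSA1 held 7.11%, 11.8% and 7.11%.

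The scale cancels in the ratio of 2 counts from 1 library, so the balance within each pair of related genes was also compared. The SSA1 count was 0.190, 0.164 and 0.199 of the SSA2 count in Pcf11-DNL, 0.319, 0.349 and 0.366 in Pcf11-13, and 0.161, 0.188 and 0.184 in wild type. The Pcf11-13 ratios were above all others, and the other groups overlapped. HSP82 stood at 0.0758, 0.0648 and 0.0745 of HSC82 in Pcf11-DNL, at 0.0950, 0.124 and 0.123 in Pcf11-13, and at 0.0530, 0.0617 and 0.0634 in wild type. These 3 groups did not overlap, with wild type lowest. SSE2 stood at 0.0327, 0.0335 and 0.0334 of SSE1 in Pcf11-DNL, at 0.0405, 0.0453 and 0.0448 in Pcf11-13, and at 0.0192, 0.0211 and 0.0200 in wild type. Again no groups overlapped, and the order was that of the Hsp90 pair.

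Between Pcf11-13 and wild type, the log2 ratio differed by 0.96 for SSA1 over SSA2, by 0.93 for HSP82 over HSC82 and by 1.11 for SSE2 over SSE1. Between Pcf11-DNL and wild type the differences were 0.05, 0.27 and 0.72 in the same order. For SSA3 over SSA4 the difference was -0.14 in Pcf11-13 and 0.11 in Pcf11-DNL, with overlapping libraries in both, and 0.25 without overlap in Pcf11-DNL against Pcf11-13. A 2-sided exact permutation test of 3 against 3 cannot go below p = 0.1. Every difference without overlap reached that value (adjusted p = 0.133 over 12 tests), so none passed 0.05 and the absence of overlap is all that this test adds.

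**Figure D3:**
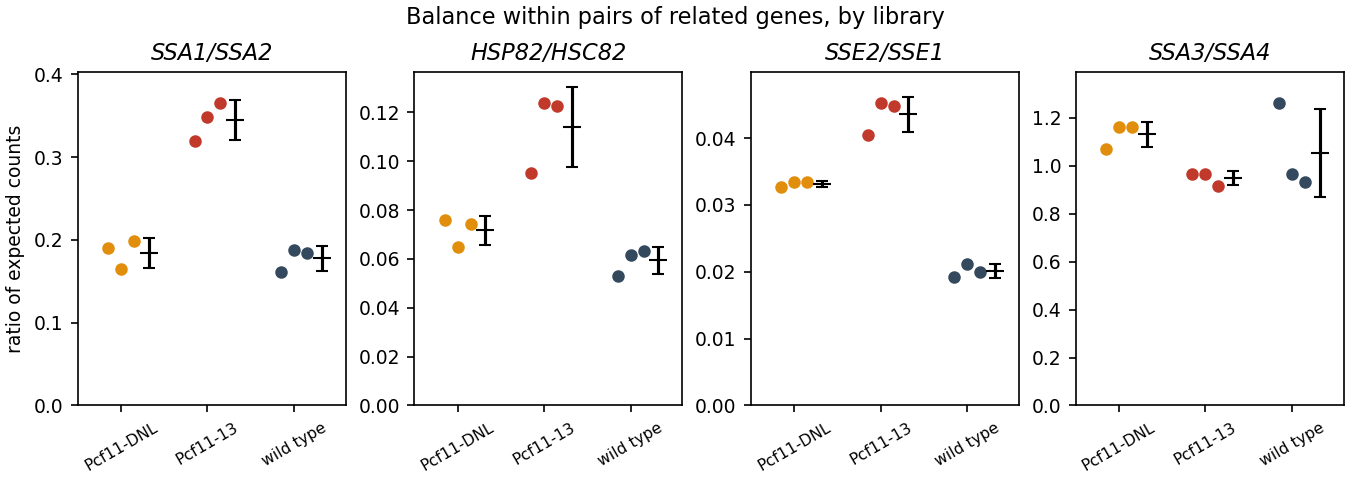
Ratio of the counts of 2 related genes within each library, one panel per pair on a linear axis from 0. Points are libraries and bars the mean ± SD of a group, in the order Pcf11-DNL, Pcf11-13 and wild type. Pcf11-13 is highest for SSA1 over SSA2 (mean 0.345), HSP82 over HSC82 (0.114) and SSE2 over SSE1 (0.0435).

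SSA1 and SSA2 are so alike that reads cannot always be told apart. Their coding sequences, on chromosomes I and XII, were identical in 96.4% of aligned bases, with an identical run of 383 bases, and 35.6% of the 150-base windows of SSA1, the length of 1 read, occurred unchanged in SSA2. The expected counts of both were not whole in 9 of 9 libraries, which is how reads divided between genes appear. HSP82 and HSC82 were identical in 91.7% of bases, shared no window of 150 bases, and were not whole in 3 libraries. SSE2 and SSE1 (72.0%) and SSA3 and SSA4 (76.6%) were whole throughout. The first 60 coding bases of the 3 pairs whose balance shifted are given to show where such genes differ, and this short stretch need not follow the likeness of the whole gene. They come from the RefSeq R64 genome (sacCer3), and capitals mark bases that differ within the pair. SSA1 lies on chrI:141372-141431 and SSA2 on chrXII:97426-97485, both on the minus strand.
SSA1: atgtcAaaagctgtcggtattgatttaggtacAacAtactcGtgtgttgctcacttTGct
SSA2: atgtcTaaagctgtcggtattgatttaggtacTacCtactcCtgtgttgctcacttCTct
SSE2 lies on chrII:575937-575996 and SSE1 on chrXVI:352216-352275, both on the minus strand.
SSE2: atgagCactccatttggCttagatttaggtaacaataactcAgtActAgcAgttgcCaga
SSE1: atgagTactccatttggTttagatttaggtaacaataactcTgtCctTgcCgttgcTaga
HSP82 lies on chrXVI:98566-98625, minus strand, and HSC82 on chrXIII:632355-632414, plus strand.
HSP82: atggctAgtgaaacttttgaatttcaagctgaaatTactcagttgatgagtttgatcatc
HSC82: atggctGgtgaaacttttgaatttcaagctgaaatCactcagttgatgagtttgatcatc
There are 6 capitals in the SSA1 stretch, 7 in that of SSE2 and 2 in that of HSP82.

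A sum over both genes of a pair does not depend on how shared reads were divided. SSA1 plus SSA2 fell in Pcf11-13 by 0.22 ± 0.06 on the log2 scale (edgeR, adjusted p = 0.0039), but the value was -0.01 under library totals (edgeR, adjusted p = 0.922). In Pcf11-DNL the sum differed from wild type by -0.15 ± 0.06 (edgeR, adjusted p = 0.109). The sum of HSP82 and HSC82 fell in Pcf11-13 by 0.19 ± 0.05 (edgeR, adjusted p = 0.00307), and that of SSE2 and SSE1 fell by 0.24 ± 0.05 (edgeR, adjusted p = 0.000225). In these 3 pairs the sum followed the more abundant gene. Under library totals HSC82 and SSE1 themselves stood at -0.05 and -0.06 and were not called (edgeR, adjusted p = 0.314 and 0.174). The sums of their pairs are not given under that scaling. SSA3 plus SSA4 rose, with a log2 fold change of 0.22 ± 0.05 (edgeR, adjusted p = 0.000472).

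The 500 bases upstream of each start codon were searched on both strands for 2 short motifs. TTCNNGAANNTTC is a form of the heat shock element that Hsf1 binds, 3 alternating repeats of its unit, and AGGGG is the stress response element that Msn2 and Msn4 bind. The heat shock form occurred in 1.46% of 5899 such windows in the genome and in 4 of the 9 members, SSA1, SSA2, SSE1 and HSP104. AGGGG occurred in 34.0% of windows and in 5 of the 9 members, SSA1, SSA4, SSE2, HSP82 and HSP104. These 5 are the genes that rose in Pcf11-13, and none of SSA2, SSA3, SSE1 and HSC82 held AGGGG in the window. SSA3 missed the threshold there narrowly (edgeR, adjusted p = 0.062), and where it was called higher, as under library totals or without wild type replicate 1, 6 members rose and 1 of them had no AGGGG. At least 2 AGGGG matches stood in 8.20% of windows and in 4 members. Whether AGGGG was more frequent among all genes that rose than among all that fell was not tested. A match is only a run of letters, no binding was measured, and the windows of genes with a close upstream neighbour reach into that neighbour. Other forms of the heat shock element were not searched, so the lack of a match is not the lack of an element.

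Stretches that hold the matches are given from R64 in the direction of the gene, with the matched letters in capitals. R64 is the reference genome, and the sequence of the w303 strains used was not examined, here or for the coding bases above. CCCCT is AGGGG read on the other strand. HSP104 has both motifs within 145 bases on chrXII:88316-88460, plus strand, where 2 heat shock matches on opposite strands overlap, followed by 3 AGGGG matches.
HSP104: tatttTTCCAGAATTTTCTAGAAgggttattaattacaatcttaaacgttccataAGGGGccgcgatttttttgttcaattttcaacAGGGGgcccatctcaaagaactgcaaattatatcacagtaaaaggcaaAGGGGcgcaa
SSA1 has 3 heat shock matches, 2 of them overlapping on chrI:141772-141801 and another on chrI:141668-141697, and 2 AGGGG matches on chrI:141582-141647, all on the minus strand.
SSA1 distal: taaactTTCCAGAACATTCTAGAAagaaag
SSA1 middle: tctttTTCCAGAACGTTCcatcggcggcaa
SSA1 proximal: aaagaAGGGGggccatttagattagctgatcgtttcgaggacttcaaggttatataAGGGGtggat
SSE2, which rose most, has a single AGGGG match, on chrII:576207-576236, minus strand, and no match to the heat shock form searched.
SSE2: cgtttctagaacgtCCCCTtaccaaaaatc
SSA4 has 3 AGGGG matches, on chrV:364117-364166 and chrV:364399-364428, plus strand.
SSA4 distal: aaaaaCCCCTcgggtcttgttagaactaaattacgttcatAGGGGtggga
SSA4 proximal: ttcaataagcaAGGGGggaagctccttagt
HSP82 has 2, on chrXVI:99007-99031 and chrXVI:98761-98785, minus strand.
HSP82 distal: ggtgtcacccCCCCTctctcaacac
HSP82 proximal: ccttccgccacCCCCTaaaacatat
The members that fell hold at most the heat shock form, SSA2 on chrXII:97698-97727 and SSE1 on chrXVI:352441-352470, both on the minus strand.
SSA2: gaagtttttTTCTAGAACATTCcatcgaag
SSE1: cgaagatgaTTCTAGAAGATTCcttttcca

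**Figure D4:**
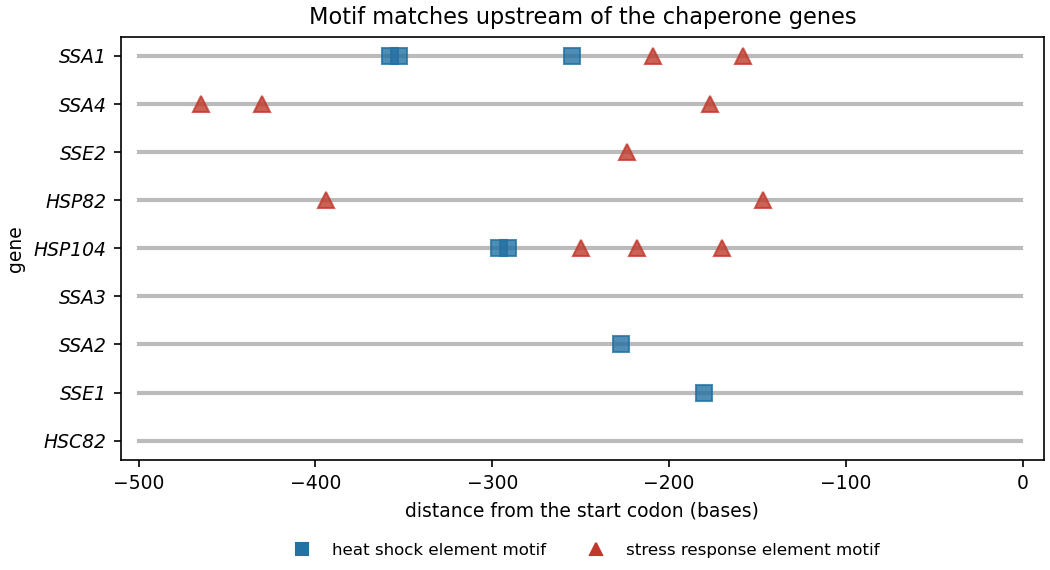
Matches to the heat shock form and to AGGGG in the 500 bases upstream of the start codon of each chaperone gene, by distance from the start codon in bases. The upper 5 genes rose in Pcf11-13, SSA3 did not pass and the lowest 3 genes fell. The 5 genes with AGGGG are the 5 that rose in the fit with all libraries and TMM scaling, and SSA3 and HSC82 have no match to either form searched. A link of AGGGG to the direction of change was not tested over all genes.

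HSF1, MSN2 and MSN4, which encode the factors that bind these motifs, were measured in the same libraries. MSN4 averaged 86.8 ± 2.69 CPM in Pcf11-DNL, 119 ± 1.14 CPM in Pcf11-13 and 83.3 ± 1.20 CPM in wild type (SD, n = 3 each). It rose in Pcf11-13 with a log2 fold change of 0.51 ± 0.04 (edgeR, adjusted p = 3.07e-08), and its value in Pcf11-DNL was 0.06 ± 0.04 (edgeR, adjusted p = 0.371). HSF1 averaged 114 ± 1.52, 94.8 ± 5.26 and 106 ± 4.27 CPM in Pcf11-DNL, Pcf11-13 and wild type. It fell in Pcf11-13 by 0.15 ± 0.05 on the log2 scale (edgeR, adjusted p = 0.0117), but the value was 0.06 under library totals (edgeR, adjusted p = 0.266) and the call was lost without Pcf11-13 replicate 2 (edgeR, adjusted p = 0.0768). HSF1 was not called in Pcf11-DNL against wild type, but it was higher there under library totals (0.16, edgeR, adjusted p = 0.0271). MSN2 did not pass in Pcf11-13 (log2 fold change -0.10 ± 0.05, edgeR, adjusted p = 0.0838) or in Pcf11-DNL (-0.13 ± 0.05, edgeR, adjusted p = 0.104). In Pcf11-13 MSN2 was called lower with DESeq2 size factors (-0.13, edgeR, adjusted p = 0.0377) but stood at 0.11 under library totals. In Pcf11-DNL it was called lower without Pcf11-DNL replicate 3 (-0.18, edgeR, adjusted p = 0.0494). Neither RNA nor motif says how active a factor was.

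The partners of the 9 chaperones were counted in lists by function. As a background to these counts, 35.2% of all genes tested were called higher in Pcf11-13 and 30.9% lower. Under scaling by library totals these shares were 59.7% and 15.2%. In Pcf11-DNL against wild type, 8.73% of all genes were called higher and 4.3% lower. Short lists with few or no calls there are thus near the share of all genes. Of 12 Hsp40 co-chaperones and exchange factors of cytosolic Hsp70, 1 was higher and 2 were lower in Pcf11-13 than in wild type, with a median log2 fold change of 0.02. The higher one was SIS1, an essential Hsp40 that works with Ssa1 and Hsp104 (0.56 ± 0.07, edgeR, adjusted p = 1.98e-06). SNL1, a membrane-bound exchange factor of the BAG type, was lower (-0.51 ± 0.06, edgeR, adjusted p = 3.37e-06). Under library totals 10 of the 12 were called higher and 1 lower, while the share of all genes called higher grew as well. No member of the list was called in Pcf11-DNL.

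Of 12 Hsp90 co-chaperones, 4 were higher and 3 lower in Pcf11-13 (median 0.07), and 8 and 2 under library totals. Without wild type replicate 1 the counts were 3 and 4 there, and 1 and 3 among the Hsp40 and exchange factor genes. HCH1, an activator of the Hsp90 ATPase related to AHA1, was higher in Pcf11-13 (0.33 ± 0.06, edgeR, adjusted p = 0.000154). It was also the list's only call in Pcf11-DNL, where it was higher too (0.31 ± 0.06, edgeR, adjusted p = 0.00211). PPT1, the phosphatase that acts on Hsp90, was lower in Pcf11-13 (-0.60 ± 0.07, edgeR, adjusted p = 1.30e-06). Of 5 Hsp104 partners and aggregate-sorting factors, 3 were higher and 2 lower in Pcf11-13 (median 0.31), and 3 and 0 under library totals. The small heat shock protein HSP26 averaged 3.96 ± 1.02 CPM in Pcf11-DNL, 11.5 ± 1.12 CPM in Pcf11-13 and 5.82 ± 0.82 CPM in wild type. Its log2 fold change in Pcf11-13 was 0.97 ± 0.17 (edgeR, adjusted p = 8.44e-05). BTN2, a sorting factor for misfolded proteins, was lower in Pcf11-13 (-0.30 ± 0.09, edgeR, adjusted p = 0.00721), but -0.09 under library totals (edgeR, adjusted p = 0.398). None of the 5 was called in Pcf11-DNL, where 1 was lower without wild type replicate 1 and 1 was higher under library totals. The counts of these 3 lists thus held calls on both sides, as did all genes.

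The ribosome-associated chaperones, which meet new chains as they leave the ribosome, and the CCT chaperonin were the lists with calls on the lower side alone in Pcf11-13. Of 7 ribosome-associated chaperones, 6 were lower and none higher (median -0.41), also under library totals. EGD1, a subunit of the nascent polypeptide-associated complex, fell by 0.53 ± 0.04 on the log2 scale (edgeR, adjusted p = 2.66e-08). Its fall by 0.14 ± 0.04 in Pcf11-DNL was the only call of that list there (edgeR, adjusted p = 0.0451), and it was lost when any library other than wild type replicate 3 was left out (edgeR, adjusted p between 0.056 and 0.145). All 8 subunits of the CCT chaperonin, which folds actin and tubulin, were lower in Pcf11-13 (median -0.34), and 7 under library totals. CCT7 fell by 0.42 ± 0.04 (edgeR, adjusted p = 3.88e-07). None of the 8 was called in Pcf11-DNL, where 1 was lower by the DESeq2 Wald test and 1 with the replicate number as a block. The Wald test also called 3 of the 7 ribosome-associated genes lower there. The all-gene medians were 0.03 in Pcf11-13 and 0.00 in Pcf11-DNL.

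Of 6 prefoldin subunits, which hand actin and tubulin to CCT, 1 was higher and 1 lower in Pcf11-13, and 3 and 0 under library totals. The higher one was PFD1 (0.68 ± 0.18, edgeR, adjusted p = 0.00399) and the lower one GIM3 (-0.27 ± 0.05, edgeR, adjusted p = 0.000408). Of 6 relatives of Hsp70, Hsp110 and Hsp100 in organelles, 3 were higher and 1 lower, and 5 and 0 under library totals. KAR2, the Hsp70 of the endoplasmic reticulum, was higher (0.42 ± 0.05, edgeR, adjusted p = 2.86e-06). SSC1, the Hsp70 of the mitochondrial matrix, was lower (-0.17 ± 0.05, edgeR, adjusted p = 0.0144), and 0.05 under library totals (edgeR, adjusted p = 0.383). In Pcf11-DNL no prefoldin gene and no organellar relative was called, beside 13% of all genes tested. With DESeq2 size factors, by the DESeq2 Wald test or with the replicate number as a block, 1 organellar relative was lower there.

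**Figure D5:**
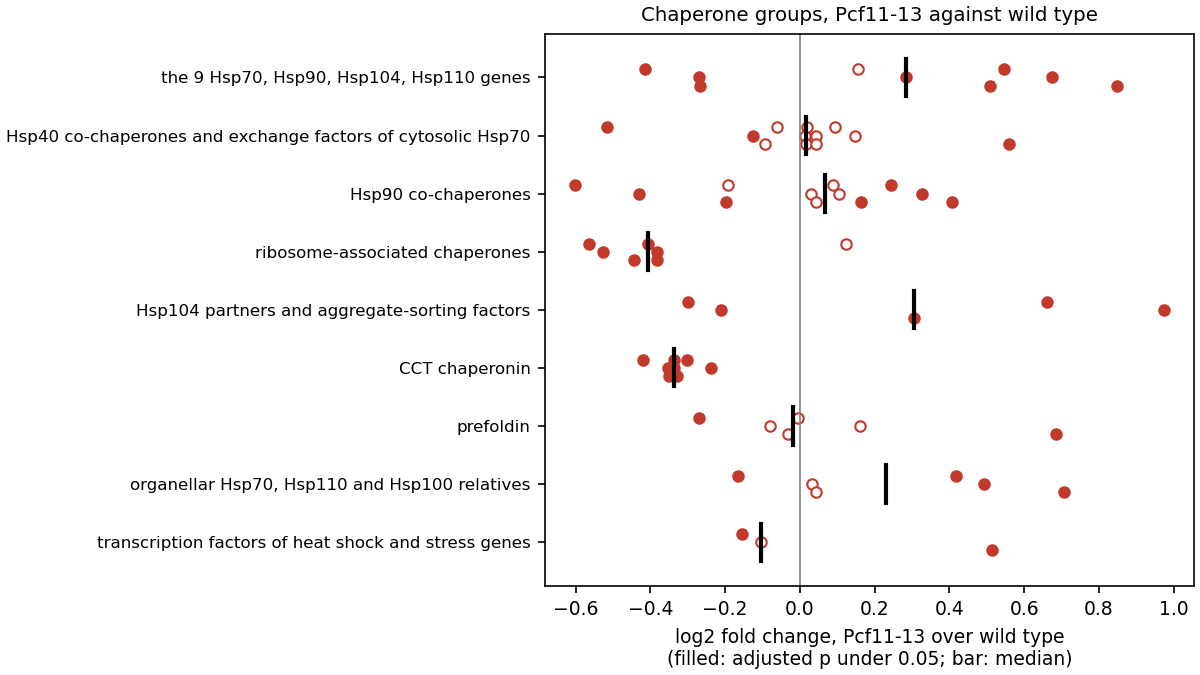
Log2 fold change in Pcf11-13 against wild type of the 9 chaperone genes and of each list of partner genes, one point per gene, filled for an adjusted p under 0.05, with the list's median as a bar. The 9 members spread to both sides of 0, while the 8 CCT subunits and 6 of the 7 ribosome-associated genes lie below it.

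The comparison of Pcf11-DNL with Pcf11-13 shares its Pcf11-13 libraries with the counts above. All 8 CCT subunits and 6 of 7 ribosome-associated chaperones were higher in Pcf11-DNL, where 29.5% of all genes were higher and 30.9% lower. Under library totals 3 of the 8 and 6 of the 7 were higher, where 15.4% of all genes were higher and 52.8% lower. Examples are CCT7 (0.33 ± 0.04, edgeR, adjusted p = 8.48e-06) and SSB1, the ribosome-bound Hsp70 (0.46 ± 0.05, edgeR, adjusted p = 9.40e-07). SSB1 has a near-identical copy, SSB2, and counts could be divided between them. SIS1 (-0.42 ± 0.07, edgeR, adjusted p = 5.66e-05), KAR2 (-0.52 ± 0.05, edgeR, adjusted p = 4.46e-07) and HSP26 (-1.54 ± 0.18, edgeR, adjusted p = 1.79e-06) were lower. SNL1 (0.57 ± 0.06, edgeR, adjusted p = 1.50e-06) and PPT1 (0.52 ± 0.07, edgeR, adjusted p = 8.29e-06) were higher. In the other lists Pcf11-DNL had 2 higher and 1 lower of 12 Hsp40 and exchange factor genes, 4 and 3 of 12 Hsp90 co-chaperones, 2 and 2 of 5 Hsp104 partners, 1 and 0 of 6 prefoldin subunits, and 0 and 3 of 6 organellar relatives. Under library totals the counts in the same order were 1 and 6, 3 and 8, 2 and 2, 0 and 2, and 0 and 6. Wild type replicate 1 enters this comparison only through the filter, scaling, estimate of variation and adjustment that all libraries share. Without that library, 4 and 4 Hsp90 co-chaperones, 2 and 0 prefoldin subunits and 0 and 4 organellar relatives were called. SGT1, a co-chaperone that links Hsp90 to kinetochore assembly, was lower (-0.18 ± 0.05, edgeR, adjusted p = 0.00329). HSP31 (0.39 ± 0.07, edgeR, adjusted p = 0.000257) and GIM3 (0.27 ± 0.05, edgeR, adjusted p = 0.000443) were higher, the GIM3 call ending under library totals (0.11, edgeR, adjusted p = 0.103). HSF1 was higher (0.27 ± 0.05, edgeR, adjusted p = 0.000213), with 0.10 under library totals (edgeR, adjusted p = 0.0583), and MSN4 was lower (-0.45 ± 0.04, edgeR, adjusted p = 1.89e-07).

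Across the 9 libraries some of the members moved together. SSA2 and HSC82 had a Pearson r of 0.98, SSA2 and SSE1 0.94, and SSE1 and HSC82 0.88. SSA1 correlated at 0.95 with SSA4 and at 0.91 with HSP82, and SSE2 at 0.92 with HSP104. HSP82 was at 0.87 with HSP104, while SSA1 was at 0.58 with SSE2. The highest r of SSA3 was 0.59, with SSA1. SSE1 and SSE2 ran opposite to each other (r = -0.88). These are descriptions over 9 libraries that share 3 groups and 1 scale, so group differences enter every r. Within groups, replicate 1 was the lowest Pcf11-13 and the lowest wild type library for SSA1, SSA4, HSP82 and HSP104, and replicate 2 was the lowest Pcf11-DNL library for all 9 members.

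A search over 5368 genes averaging 5 CPM or more gave the genes most like each member. The one whose level over the 9 libraries was most like that of SSE2 was YJR096W (r = 0.995), followed by HOG1 (0.991) and PCT1 (0.990). For SSA1 it was TOM71 (0.984), then GPD1 (0.982) and RPN5 (0.981). For HSP104 it was SNX41 (0.965), then SRY1 and DOA1. For HSP82 it was IDH2 (0.973), then SAF1 and YNR061C, and for SSA4 it was YNL115C (0.985), then MLO50 and MRPL16. For the genes that fell, SSA2 was most like BPL1 (0.986), then ATP1 and AIM6. SSE1 was most like CHS5 (0.994), then TMA108 and NCP1, and HSC82 like RNH201 (0.979), then PMU1 and AIM6. SSA3 had the weakest best match of the 9, IML1 (0.938), followed by DOP1 and VCX1.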

How the data were processed

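Per the labels' protocols, poly(A) RNA was sequenced in paired reads of 150 bases. The authors deposited 1 table of expected counts per gene and library, not normalized, in which 10.8% of values were not whole. The submitters' processing notes name Trimmomatic 0.38, FastQC, STAR 2.6.1b, RSEM 1.3, DESeq2 1.26.0 and the build sacCer3. The strand setting is not given in the sources used here, so reads of overlapping antisense transcripts could not be separated.

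Of 5928 genes, 5919 matched the RefSeq R64 annotation by systematic name, including all members. Counts were rounded and fitted in R 4.3.3 with edgeR 4.0.16 (filterByExpr minimum count 10, TMM scaling, 1 quasi-likelihood model over all 9 libraries, two-sided F test). P-values were adjusted by Benjamini and Hochberg over 5646 genes, and 282 genes were removed. The standard error was taken from the F value, and biological variation had a coefficient of 4.59%. Levels are CPM on the TMM scale, and 0.00 means under 0.005 in size. Library totals instead of TMM moved the all-gene median log2 change to 0.245 in Pcf11-13. Between Pcf11-13 and wild type, libraries with the same number had residual correlations of 0.42, 0.284 and 0.263. The reported fit and the permutation test did not use this pairing. As an alternative, the replicate number was added as a block, which changed no member's call in that comparison. Other alternatives were DESeq2 size factors and the DESeq2 1.42.0 Wald test, limma-voom (limma 3.58.1), no filter or one at 5 CPM on average, the compared groups alone, each library left out, and related pairs summed.

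The members and lists were chosen with earlier results of these data known. Named beside the members are PCF11, the 3 factors, the called gene with the smallest adjusted p in each direction of each list, and the 3 genes with the most similar pattern. SSB2, AHA1 and the members' neighbours are named outside that rule.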

Additional observations from a re-analysis of the deposited data

How the results depend on the processing

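Under library totals 6 members, against 5, were higher and 1, against 3, was lower in Pcf11-13 than in wild type, and 0, against 3, were higher and 6, against 4, lower in Pcf11-DNL than in Pcf11-13. Directions turned for SSE1 (-0.0332), SSA1 plus SSA2 (-0.0920) and the summed level of the 9 (-0.0806) between the mutants, and in Pcf11-13 against wild type for the summed level of the 9 (0.0260), HSF1 (0.0585), MSN2 (0.108) and SSC1 (0.0497). The members lower in Pcf11-DNL than in wild type numbered 0 in the fit as reported, 1 under DESeq2's size factors, 2 by its Wald test, 2 with the replicate block (SSA2, adjusted p = 0.0436, and SSE1, adjusted p = 0.0251, edgeR), and between 0 and 2 when single libraries were left out. At an unadjusted p under 0.05 those 2 genes were lower. Replicate numbers did not pair Pcf11-DNL libraries with either other group, with same-number correlations between -0.112 and 0.304. Leaving out Pcf11-DNL replicate 2 turned SSA1 to 0.0339, and leaving out wild type replicate 2 or 3 turned SSA3 to -0.0367 or -0.0280, where without wild type replicate 1 it was 0.101, all in Pcf11-DNL against wild type and none past the threshold.

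Summing related pairs gives both genes the pair's value by construction. Members higher and lower in Pcf11-13 then numbered 3 and 6, with SSA1 at -0.22, SSE2 at -0.24 and HSP82 at -0.19. In Pcf11-DNL against wild type 1 was higher, with SSA3 at -0.0448, SSE2 at -0.123 and HSP82 at -0.0785. Between the mutants 2 were lower, with SSA1 at 0.0711, SSE2 at 0.115 and HSP82 at 0.116. SSE2 and HSP104 in both mutants, and SSA1, SSA4 and HSP82 in Pcf11-13, kept their call under the scalings, filters, tests and left-out libraries tried. With 3 libraries a group, and nothing known of culture dates, smaller changes may be missed.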

Other observations

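Genes next to the members, on R64, were also read out. SSE2 and its upstream neighbour NPL4, 347 bp away on the same strand, were both higher in Pcf11-13 than in wild type. NPL4, a cofactor of the Cdc48 segregase, had a log2 fold change of 0.54 ± 0.04 (edgeR, adjusted p = 3.33e-08). In Pcf11-DNL, where SSE2 was higher too, NPL4 stood at 0.05 ± 0.05 (edgeR, adjusted p = 0.511).

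Downstream on the same strand, CIN2, the gene next to HSP82, was higher in Pcf11-13 (0.44 ± 0.08, edgeR, adjusted p = 0.000106), as was RTT105, 284 bp from SSA4 (0.74 ± 0.17, edgeR, adjusted p = 0.00124). ILS1, the isoleucyl-tRNA synthetase gene next to SSA3, was lower (-0.47 ± 0.04, edgeR, adjusted p = 1.44e-07). Upstream on the same strand, ISA1 by HSP104 was higher (0.23 ± 0.06, edgeR, adjusted p = 0.00378), while RPS8B by SSA4 (-0.38 ± 0.04, edgeR, adjusted p = 3.94e-07) and SYH1 by SSE1 (-0.30 ± 0.05, edgeR, adjusted p = 0.000118) were lower. SYH1 was at -0.08 under library totals. AAR2, upstream of SSA3 on the same strand, was higher (0.29 ± 0.11, edgeR, adjusted p = 0.0282), a call lost by the DESeq2 Wald test and without Pcf11-13 replicate 1 or 2 or wild type replicate 1 or 2 (edgeR, adjusted p between 0.0515 and 0.117). On the other strand, PEX32 by SSE2 (0.41 ± 0.09, edgeR, adjusted p = 0.000908), PAU17 by SSA2 (1.43 ± 0.33, edgeR, adjusted p = 0.00125) and YMR187C by HSC82 (0.22 ± 0.07, edgeR, adjusted p = 0.0113) were higher. PAU17 averaged only 2.07 CPM in Pcf11-13 and 0.781 CPM in wild type, so its change rests on few reads. EFB1, upstream of SSA1 on the other strand, was lower in Pcf11-13 (-0.35 ± 0.04, edgeR, adjusted p = 4.73e-07) and was the one neighbour called in Pcf11-DNL (-0.20 ± 0.04, edgeR, adjusted p = 0.00186). The neighbours thus lay on the same side as some members and on the other side from others. POM33, DPC25, YAR1 and RTP1, also next to members, were not called in Pcf11-13. Beside these calls, 66.1% of all genes tested were called in Pcf11-13 and 13% in Pcf11-DNL.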
